A study of Homo sapiens with 12 samples.

Results

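Receptors that guide T cells through tissues and hold them there were followed as transcripts in MOLT4, a long-established line of human T-cell acute lymphoblastic leukemia. The set was given by name and held 8 of the 23619 gene names in the expression table: the chemokine receptors CXCR4, CCR7 and CCR9, the sphingosine 1-phosphate receptor S1PR1, the integrin chains ITGA4, ITGAL and ITGB2, and the hyaluronan receptor CD44. Of these, 7 had a mean of 1 FPKM (fragments per kilobase of transcript, on the scale the authors set) or more over all libraries and were among the 11381 genes tested, and CCR7 fell short.

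Poly(A) RNA was sequenced from cells kept for 6 h in 0.1% DMSO, the vehicle, or in 1 of 3 compounds at 250 nM, SNS-032, its derivative THAL-SNS-032, or NVP-2, with 3 libraries per group and 12 in all. Values given for the 3 compounds in turn keep this order. SNS-032 is an inhibitor of cyclin-dependent kinases including CDK9, a kinase that releases paused RNA polymerase II into elongation. THAL-SNS-032 joins SNS-032 to a thalidomide-derived ligand of the ubiquitin ligase adaptor cereblon, and NVP-2 is another CDK9 inhibitor. All groups are the same line at 1 dose and 1 time, and nothing in the labels ties the libraries of 1 group to separate cultures, so the p-values here reflect library spread, which may be technical.

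Circulating T cells leave the blood in steps. Chemokine receptors, which couple to inhibitory G proteins, sense ligands on the vessel wall and in the tissue, and their signals switch integrins from a bent to an extended state that binds firmly. CXCR4 answers CXCL12 from marrow stroma and is known for holding T-cell leukemia in the marrow, CCR9 answers CCL25 of thymus and gut, CCR7 answers the lymph node chemokines CCL19 and CCL21, and S1PR1 draws cells out of lymphoid tissue towards the sphingosine 1-phosphate of blood. ITGA4 pairs with ITGB1 to bind VCAM1 and fibronectin, ITGAL pairs with ITGB2 to form LFA-1, which binds ICAM1, and CD44 binds hyaluronan.

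The values are on the scale the authors deposited. There the median change of the spike-in RNAs added at lysis was -0.0153 to 0.0011 from DMSO in log2(FPKM + 1) over the libraries. Spike-ins near the lowest values would look level on any scale, and whether the median one lay there was not tested. On the deposited scale the median tested gene kept 22.1% of its DMSO level after SNS-032, 22.1% after THAL-SNS-032 and 12.1% after NVP-2. The median gene differed from DMSO by -1.92, -1.90 and -2.54 in log2(FPKM + 1), the scale of all fitted differences here, which understates the changes of genes that lie close to the lowest values of about 0.1 FPKM. Within its group SNS-032 replicate 1 was the odd library: its median gene lay -2.32 from DMSO, against -1.68 and -1.77 in the other SNS-032 libraries. In bulk RNA fewer cells of a type and less RNA per cell cannot be told apart. The T-lineage label was met: 11 of 11 T-lineage markers reached 1 FPKM in DMSO, where their summed level was 3825 to 4805 FPKM, against 756 to 1261 with SNS-032, 1342 to 1496 with THAL-SNS-032 and 650.3 to 792 with NVP-2. Myeloid markers summed to 1.04 to 1.19 FPKM in DMSO, 2.06 to 3.84 with SNS-032, where 1 of 6 reached 1 FPKM, 4.38 to 5.57 with THAL-SNS-032, where 3 of 6 did, and 0.729 to 0.806 under NVP-2. The part of these other markers in the results below was not tested. Of 6 B-lineage markers 2 reached 1 FPKM in DMSO, where the list summed to 11.8 to 12.9 FPKM, and CD79A, at 9.07 FPKM there, stayed above 1 FPKM in every group. None of the erythroid, stromal or epithelial and endothelial markers reached a mean of 1 FPKM in any group.

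The promoters of 3 members are shown because CXCR4 and CCR9 differed most between compounds below while ITGA4 did not pass the test between THAL-SNS-032 and SNS-032 on the deposited scale. Each stretch is the 150 bases before a transcription start in RefSeq's table (GRCh38.p14), on the strand of the gene: CXCR4 at chr2:136118150-136118299 (minus strand, the most upstream of 3 starts), CCR9 at chr3:45886393-45886542 (plus strand, the first of 2 starts) and ITGA4 at chr2:181457236-181457385 (plus strand, 1 start). Capitals mark matches to TATAAA, to GGGCGG or to CCAAT on either strand.
CXCR4: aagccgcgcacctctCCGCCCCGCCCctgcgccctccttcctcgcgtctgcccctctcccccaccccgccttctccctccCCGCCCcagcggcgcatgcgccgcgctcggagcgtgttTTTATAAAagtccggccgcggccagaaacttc
CCR9: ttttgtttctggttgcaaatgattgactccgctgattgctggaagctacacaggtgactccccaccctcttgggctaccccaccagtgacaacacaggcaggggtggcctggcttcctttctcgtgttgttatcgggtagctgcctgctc
ITGA4: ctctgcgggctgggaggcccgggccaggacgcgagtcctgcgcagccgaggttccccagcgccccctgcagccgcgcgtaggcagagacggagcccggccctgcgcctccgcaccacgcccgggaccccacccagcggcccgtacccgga
The CXCR4 stretch holds TATAAA 30 bases before the start, the core of a TATA box, which overlaps a match on the other strand at 32 bases. It also holds GGGCGG, the core of a GC box, on the other strand at 135, 130 and 70 bases, the first pair of which overlap. Neither the CCR9 nor the ITGA4 stretch holds any of these letters. The matches depend on the start shown. No TATAAA was found at the further CXCR4 starts, and start 2 has CCAAT on the other strand at 84 bases. Start 2 of CCR9 has TATAAA at 154 bases, just outside a stretch of 150. Among 35116 promoters in the table, the same 150 bases hold TATAAA in 6.71%, GGGCGG in 36.8% and CCAAT in 23.5%, and the matches are descriptions only. Of the 8 members 5 have an entry there, and ITGAL, CCR7 and ITGB2 have none.

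The genes themselves differ in build. In GENCODE v29 (GRCh38) CXCR4 spans 3.82 kb of chromosome 2 with at most 2 exons, S1PR1 6.85 kb of chromosome 1, CCR7 11.7 kb of chromosome 17 and CCR9 16.7 kb of chromosome 3. The adhesion genes are longer, with ITGB2 spanning 46 kb of chromosome 21, ITGAL 50.5 kb of chromosome 16, ITGA4 79 kb of chromosome 2 and CD44 93.5 kb of chromosome 11. Whether gene length moves with the changes was not tested.

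CXCR4 was the most abundant member in DMSO and kept most of that level with SNS-032, yet only a small share with THAL-SNS-032 and almost none with NVP-2. Its level was 427, 506 and 519 FPKM in the DMSO libraries and 233, 403 and 388 FPKM with SNS-032. With THAL-SNS-032 it was 50.6, 61.4 and 51.8 FPKM, and with NVP-2 it was 6.46, 7.44 and 6.24 FPKM. The 4 groups followed one another without overlap, DMSO highest and NVP-2 lowest, and the low SNS-032 library was replicate 1. The group means were 484 ± 49.6, 341 ± 94.2, 54.6 ± 5.94 and 6.71 ± 0.637 FPKM (SD, n = 3 each), so that 70.5%, 11.3% and 1.39% of the DMSO level was left with the 3 compounds in turn.

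The fall of CXCR4 passed the test with each compound. With NVP-2 it fell by 5.97 on the log2 scale (SE 0.21, limma adjusted p = 4.2e-12) and with THAL-SNS-032 by 3.12 (adjusted p = 1.35e-09). With SNS-032 it fell by 0.54 (SE 0.21, adjusted p = 0.021), a smaller fall than that of the median gene, and 95% of tested genes kept a smaller share of their DMSO level. That call was lost without DMSO replicate 2 (-0.50, adjusted p = 0.0599), without DMSO replicate 3 (-0.49, adjusted p = 0.066) and with only the 6 libraries of the pair (adjusted p = 0.0904), and the sign turned where libraries were centred on their median (1.63). With NVP-2 only 2.24% of tested genes kept a smaller share than CXCR4.

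**Figure D1:**
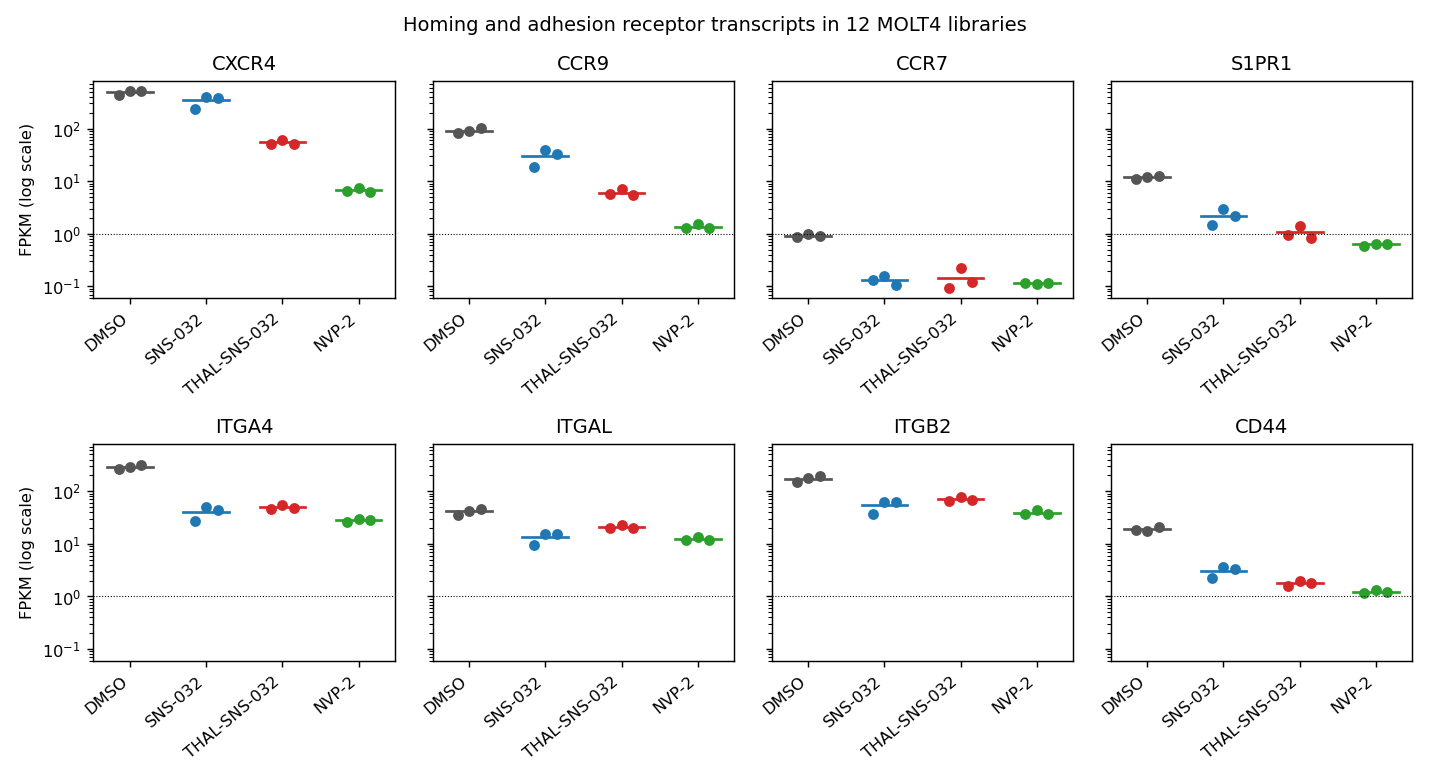
FPKM of each receptor transcript (log scale) in the DMSO group and the 3 compound groups, 1 point per library, with a dotted line at 1 FPKM. CXCR4 steps down through the 4 groups from 484 to 6.71 FPKM in the mean, whereas ITGAL runs from 41.6 to 12.3 FPKM and its SNS-032 and NVP-2 libraries overlap.

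CCR9, the gut and thymus receptor, stepped down in the same order of groups. The DMSO libraries held 81.5, 90.8 and 101 FPKM and the SNS-032 libraries 18.6, 38.9 and 32.2 FPKM. It reached 5.68, 7.11 and 5.43 FPKM with THAL-SNS-032 and 1.31, 1.53 and 1.27 FPKM with NVP-2. Again no groups overlapped, and SNS-032 replicate 1 was the lowest of its group. From 91.0 ± 9.64 FPKM in DMSO, 32.9% was left after SNS-032, 6.67% after THAL-SNS-032 and 1.504% after NVP-2. The differences from DMSO were -1.63 (SE 0.22), -3.70 and -5.28, with limma adjusted p = 3.56e-06, 4.4e-10 and 9.58e-12. Relative to the median gene the SNS-032 change was 0.29, so its sign turns with that scaling, while the THAL-SNS-032 and NVP-2 changes were -1.80 and -2.74.

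CCR7, the lymph node receptor, was scarcely present. It stood at 0.853, 0.988 and 0.912 FPKM in DMSO, and the libraries of the compounds held between 0.0913 and 0.228 FPKM. All 9 treated libraries lay below all 3 DMSO libraries, but many lay near the lowest value that many names share within a library. That value was 0.0910 to 0.104 FPKM over the libraries, and 4199 names shared it in DMSO replicate 1, so no fold or test is given.

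S1PR1, the egress receptor, was a low transcript that fell with all compounds. It measured 10.97, 12.2 and 12.7 FPKM in DMSO and 1.499, 2.97 and 2.15 FPKM with SNS-032. THAL-SNS-032 libraries held 0.929, 1.43 and 0.840 FPKM, and NVP-2 libraries 0.597, 0.636 and 0.648 FPKM. The groups did not overlap, although THAL-SNS-032 replicate 2 came within a narrow margin of SNS-032 replicate 1. The share left was 18.4%, 8.90% and 5.24% of 11.97 ± 0.905 FPKM with the 3 compounds in turn. The fitted differences were -2.04 (SE 0.16), -2.66 and -2.99 (limma adjusted p = 1.12e-08, 6.44e-10 and 9.45e-11). With SNS-032 S1PR1 thus fell about as far as the median gene, and median-centring of the libraries turned that difference to 0.13.

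ITGA4, the alpha chain of VLA-4, was the second most abundant member and fell with all compounds. Its level was 268, 289 and 311 FPKM in DMSO and 27.2, 50.6 and 44.8 FPKM with SNS-032. With THAL-SNS-032 it was 46.0, 55.3 and 47.0 FPKM, and with NVP-2 it was 26.5, 29.7 and 27.9 FPKM. All treated libraries lay far below DMSO, and SNS-032 replicate 1 lay among the NVP-2 libraries, while the other SNS-032 libraries lay near those of THAL-SNS-032. Of 289.6 ± 21.6 FPKM in DMSO, 14.1%, 17.1% and 9.67% was left. The differences were -2.84 (SE 0.20), -2.53 and -3.32 in turn (limma adjusted p = 3.69e-09, 1.27e-08 and 3.4e-10), each larger than that of the median gene.

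ITGB1, the beta chain that pairs with ITGA4, was not a member and kept more of its level. It measured 94.6 ± 5.91 FPKM in DMSO, 36.3 ± 9.38 after SNS-032, 44.5 ± 3.66 after THAL-SNS-032 and 26.0 ± 2.13 after NVP-2, that is 38.4%, 47.1% and 27.5%. The ratio of ITGA4 to ITGB1 within a library does not depend on the scale between libraries. It was 3.02 to 3.12 in DMSO, and it was 1.06 to 1.23 with SNS-032, 1.09 to 1.14 with THAL-SNS-032 and 1.04 to 1.12 with NVP-2. Each compound thus moved this ratio to nearly the same place, with log2 differences from DMSO of -1.45, -1.46 and -1.504. No treated library reached the DMSO range (p = 0.1 by exact two-sided permutation in all 3 comparisons, the lowest that groups of 3 allow). Between compounds the ratios overlapped, with exact permutation p = 1 for THAL-SNS-032 against SNS-032, 0.4 for THAL-SNS-032 against NVP-2 and 0.7 for SNS-032 against NVP-2.

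The chains of LFA-1 kept the largest shares with THAL-SNS-032 and NVP-2 among the tested members. ITGAL, its alpha chain, measured 35.7, 42.6 and 46.5 FPKM in DMSO and 9.34, 15.7 and 15.5 FPKM with SNS-032. It measured 20.0, 22.7 and 19.6 FPKM with THAL-SNS-032 and 11.8, 13.3 and 11.9 FPKM with NVP-2. The THAL-SNS-032 libraries lay above all those of the other compounds, and SNS-032 replicate 1 lay below the NVP-2 libraries. Of 41.6 ± 5.50 FPKM, 32.5%, 49.95% and 29.6% was left with the 3 compounds in turn. ITGAL fell by 1.58 (SE 0.19), 0.96 and 1.67 on the log2 scale (limma adjusted p = 1.09e-06, 0.000187 and 4.5e-07), less than the median gene each time, so its direction turns to higher (0.34, 0.94 and 0.87) relative to that gene.

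ITGB2, the beta chain of LFA-1, gave a like order of groups at a higher level. DMSO libraries held 152, 179 and 192 FPKM and SNS-032 libraries 37.0, 63.6 and 61.3 FPKM. With THAL-SNS-032 the level was 64.3, 76.0 and 69.2 FPKM, and with NVP-2 it was 36.8, 44.2 and 36.8 FPKM. DMSO stood clear of all treated libraries, and THAL-SNS-032 stood just above the others. Of 174 ± 20.2 FPKM, 31.0%, 40.1% and 22.5% was left. Its differences of -1.71 (SE 0.20), -1.30 and -2.12 passed the test (limma adjusted p = 9.94e-07, 1.87e-05 and 5.91e-08), and relative to the median gene they were 0.22, 0.60 and 0.42, again with the sign turned.

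The ratio of ITGAL to ITGB2 moved little. It was 0.234 to 0.243 in DMSO, 0.247 to 0.253 with SNS-032, 0.284 to 0.311 with THAL-SNS-032 and 0.301 to 0.322 with NVP-2. Each compound group lay above DMSO, by 0.073, 0.32 and 0.40 in log2 (exact two-sided permutation p = 0.1 each, the smallest possible). THAL-SNS-032 exceeded SNS-032 by 0.25 without overlap (exact permutation p = 0.1), and THAL-SNS-032 and NVP-2 overlapped (exact permutation p = 0.2).

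CD44, the hyaluronan receptor, fell to a low level with every compound. Its level was 18.1, 17.8 and 20.5 FPKM in DMSO and 2.23, 3.69 and 3.34 FPKM with SNS-032. THAL-SNS-032 libraries held 1.59, 1.98 and 1.81 FPKM and NVP-2 libraries 1.15, 1.33 and 1.21 FPKM. The groups followed one another without overlap from DMSO down through the compounds in turn. Of 18.8 ± 1.49 FPKM, 16.4%, 9.53% and 6.54% was left, with differences of -2.29 (SE 0.15), -2.83 and -3.15 (limma adjusted p = 1.25e-09, 1.49e-10 and 2.47e-11). CD44 is spliced into many forms, and the table holds 1 value per gene, so these are sums over forms.

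All 7 tested members were lower than in DMSO with each of the 3 compounds. This count is near the background, since 94.6%, 94.8% and 97.1% of all tested genes were lower in the same comparisons. The members' median differences were -1.71, -2.66 and -3.15, against -1.92, -1.90 and -2.54 over all tested genes. With each library centred on its own median, 4 members were higher and 1 lower with SNS-032, 2 higher and 5 lower with THAL-SNS-032 and 2 higher and 4 lower with NVP-2, while 5989, 6515 and 6789 of all tested genes were higher and 3537, 3319 and 3198 lower. The comparisons with DMSO share the same 3 control libraries. What set the members apart from one another was the share left, which with SNS-032 ran from 14.1% for ITGA4 to 70.5% for CXCR4, with THAL-SNS-032 from 6.67% for CCR9 to 49.95% for ITGAL, and with NVP-2 from 1.39% for CXCR4 to 29.6% for ITGAL. CXCR4 thus kept the largest share of the 7 with SNS-032 and the smallest with NVP-2.

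**Figure D2:**
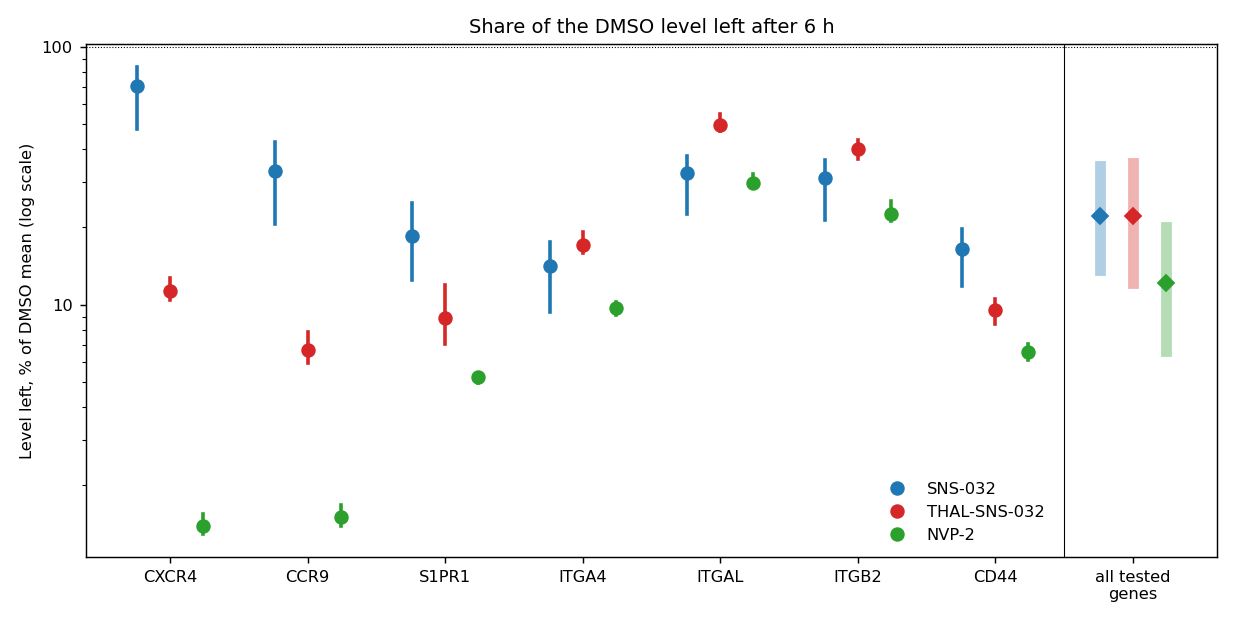
Share of the DMSO mean left (percent, log scale) for the 7 tested receptor transcripts and for the median of all tested genes, with points for group means and lines from the lowest to the highest library. CXCR4 spreads from 70.5% with SNS-032 to 1.39% with NVP-2, while ITGA4 stays between 9.67% and 17.1%.

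SNS-032 and THAL-SNS-032 differ by the cereblon ligand and were given at the same dose for the same time. CXCR4 was lower with THAL-SNS-032, at a log2 difference of -2.59 (SE 0.21, 95% interval -3.03 to -2.14, limma adjusted p = 6.59e-07), and so was CCR9, at -2.07 (interval -2.54 to -1.61, adjusted p = 6.57e-06). S1PR1 (-0.62, adjusted p = 0.0109) and CD44 (-0.53, adjusted p = 0.0147) were lower by less, and ITGAL was higher by 0.62 (adjusted p = 0.0247). That makes 4 members lower and 1 higher, where 16.7% of all tested genes were lower and 13.4% higher and the median gene differed by 0.14. Centring each library on its own median gave 4 lower and 3 higher members, with 23.1% of all tested genes lower and 51.2% higher. ITGA4 and ITGB2 did not pass on the deposited scale, with differences of 0.31 (interval -0.13 to 0.75, adjusted p = 0.259) and 0.40 (interval -0.035 to 0.84, adjusted p = 0.148), and both intervals lie within 2-fold in either direction, as do those of 76.9% of all tested genes. Both passed as higher with median-centred libraries (0.40 and 0.49, limma adjusted p = 6.23e-06 and 2.01e-05). They also did with quantile normalization (0.23 and 0.28, limma adjusted p = 0.000454 and 2.86e-06).

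The smaller of these differences moved little when libraries were left out, but their adjusted p crossed the threshold. The ITGAL call was lost without any 1 of the THAL-SNS-032 libraries (0.55 to 0.65, adjusted p = 0.0554 to 0.0981) and with only the 6 libraries of the pair (adjusted p = 0.139). The CD44 call was lost without THAL-SNS-032 replicate 1 (-0.48, adjusted p = 0.0682), without SNS-032 replicate 3 (-0.48, adjusted p = 0.0522) and with the 6 libraries alone (adjusted p = 0.123), and the S1PR1 call without THAL-SNS-032 replicate 3 (-0.54, adjusted p = 0.0552). The CXCR4 and CCR9 calls held in each of these fits.

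**Figure D3:**
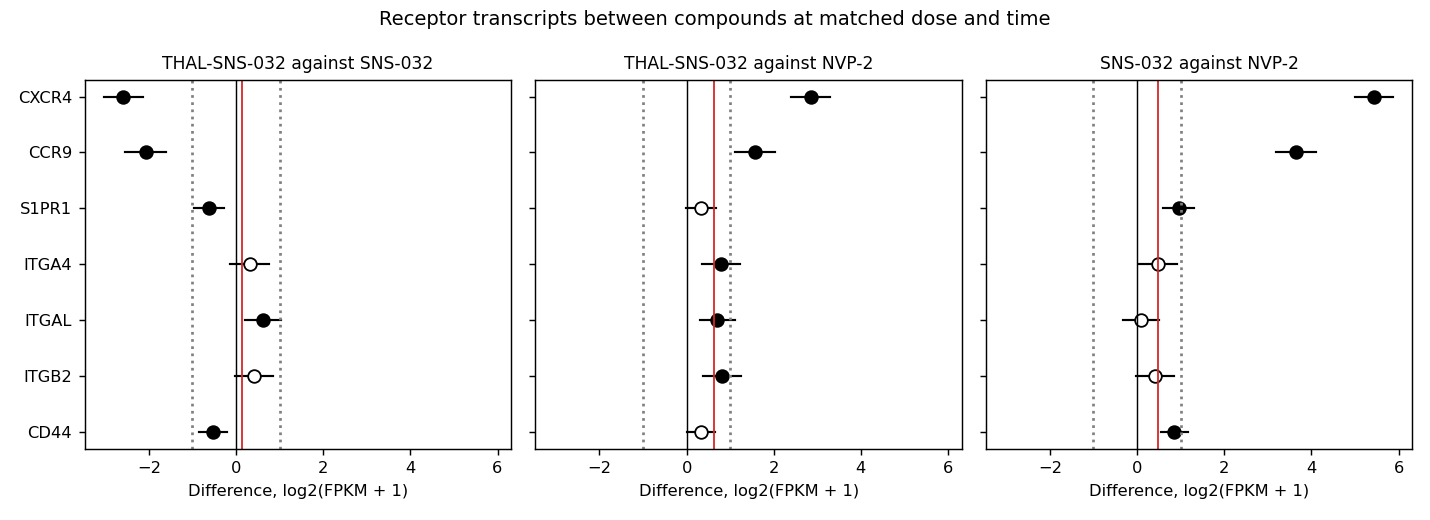
Differences in mean log2(FPKM + 1) between pairs of compounds for the 7 tested receptor transcripts, with 95% intervals, 1 panel per pair. CXCR4 and CCR9 lie far from 0 in every panel, and ITGA4 and ITGB2 reach across 0 for THAL-SNS-032 against SNS-032.

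Against NVP-2, THAL-SNS-032 left higher levels of 5 members. The differences were 2.85 for CXCR4 (limma adjusted p = 3.99e-07), 1.57 for CCR9 (adjusted p = 6.51e-05), 0.82 for ITGB2 (adjusted p = 0.00301), 0.79 for ITGA4 (adjusted p = 0.00371) and 0.71 for ITGAL (adjusted p = 0.00474). Over all tested genes 70% were higher and 0.993% lower, and the median gene differed by 0.64. Median-centring moved the members to 2 higher and 2 lower and all tested genes to 29.4% higher and 38% lower. S1PR1 (0.33, interval -0.016 to 0.68, adjusted p = 0.0796) and CD44 (0.32, interval 0.0045 to 0.64, adjusted p = 0.0644) did not pass, although their libraries did not overlap. Both passed with a replicate block (adjusted p = 0.0472 and 0.0412), with only the 6 libraries of the pair (0.0139 and 0.00422), with a pseudocount of 0.1 (0.026 and 0.031) and without SNS-032 replicate 1 (0.021 and 0.00312) or 2 (0.0351 and 0.037), and S1PR1 also with robust limma (0.0453). Relative to the median gene CXCR4 stood out by 2.21 and CCR9 by 0.93, and ITGA4, ITGB2 and ITGAL by 0.16, 0.18 and 0.07.

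Against NVP-2, SNS-032 left higher levels of CXCR4 (5.43, SE 0.21, limma adjusted p = 5.6e-10), CCR9 (3.65, adjusted p = 8.53e-09), S1PR1 (0.95, adjusted p = 0.000198) and CD44 (0.86, adjusted p = 0.00022). This makes 4 of 7, where 52.6% of tested genes were higher and 0.782% lower, and the median gene differed by 0.48. Median-centring moved the members to 2 higher and 3 lower and all tested genes to 24.8% higher and 58.9% lower. ITGA4 (0.48, adjusted p = 0.0596), ITGB2 (0.42, adjusted p = 0.0987) and ITGAL (0.09, interval -0.32 to 0.50, adjusted p = 0.706) did not pass. Without SNS-032 replicate 1, the library that stood apart, all 7 were higher, ITGA4 by 0.75, ITGB2 by 0.66 and ITGAL by 0.32, and so were 81.6% of all tested genes. ITGA4 (adjusted p = 0.0206) and ITGB2 (adjusted p = 0.0316) also passed with a replicate block, and ITGA4 with robust limma and without trend.

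Ratios taken inside a library show the spread among members without the scale between libraries. They were chosen after the values were seen and are given without a test. For each FPKM of ITGA4 the DMSO libraries held 1.59 to 1.75 FPKM of CXCR4, the SNS-032 libraries 7.95 to 8.67, the THAL-SNS-032 libraries 1.10 to 1.11 and the NVP-2 libraries 0.224 to 0.251. CCR9 against ITGA4 ran from 0.304 to 0.324 in DMSO, from 0.686 to 0.769 with SNS-032, from 0.116 to 0.129 with THAL-SNS-032 and from 0.0454 to 0.0515 with NVP-2. Both ratios were thus above DMSO with SNS-032 and below it with THAL-SNS-032 and NVP-2, and SNS-032 replicate 1 did not stand apart in either.

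**Figure D4:**
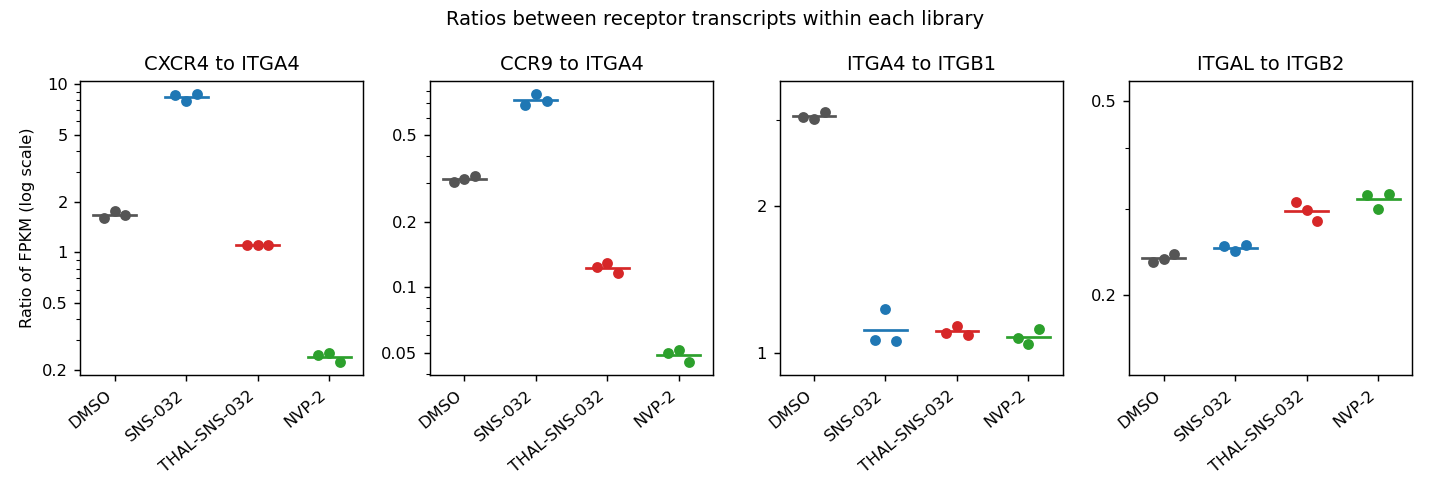
Ratios of FPKM between pairs of receptor transcripts within each library (log scale), 1 point per library in the 4 groups. CXCR4 to ITGA4 is highest with SNS-032 (7.95 to 8.67) and lowest with NVP-2 (0.224 to 0.251), and ITGA4 to ITGB1 is near 1.1 with all compounds against 3.02 to 3.12 in DMSO.

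Other genes of homing and adhesion were counted from a list of 99 names, of which 98 were in the table and 56 were tested. With SNS-032 54 of them were lower than in DMSO, 0 higher and 2 did not pass. With THAL-SNS-032 55 were lower and 1 was higher, and all 56 were lower with NVP-2. On the deposited scale 1.54%, 1.37% and 0.448% of all tested genes were higher in these comparisons and 94.6%, 94.8% and 97.1% lower. Some listed genes passed the filter only through the DMSO libraries, so their falls were partly set by it. With each library centred on its own median the list splits became 27 higher and 20 lower, 33 higher and 21 lower, and 32 higher and 17 lower. Of all tested genes 52.6%, 57.2% and 59.7% were then higher and 31.1%, 29.2% and 28.1% lower. The list's median differences of -2.01, -1.90 and -2.35 lay close to those of all tested genes, -1.92, -1.90 and -2.54. Its 10 tested genes of the migration cytoskeleton had median differences of -1.81, -1.48 and -2.32, nearer to 0. Of these 10, 2 (20%) were higher and 0 lower with THAL-SNS-032 than SNS-032, beside 13.4% and 16.7% of all tested genes.

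Chemokine receptors beyond the members were mostly too low to test, and only 2 of 18 passed the filter. CXCR6, the receptor of the membrane chemokine CXCL16, was the 1 tested listed gene counted as higher with THAL-SNS-032. It stood at 0.387 ± 0.179 FPKM in DMSO, 0.700 ± 0.216 after SNS-032, 6.72 ± 1.18 after THAL-SNS-032 and 0.0864 ± 0.0308 under NVP-2. Its mean passed the filter only through the THAL-SNS-032 libraries, so a gene kept in this way had to differ and its test adds nothing. CCRL2, an atypical receptor that binds chemerin, passed only through the DMSO libraries, and it went from 6.39 ± 0.886 FPKM to 0.162 ± 0.101, 0.198 ± 0.0415 and 0.187 ± 0.00891 with the 3 compounds in turn. Of 8 chemokine ligands 0 passed the filter, and the ligands of the members were low in these cells, where CXCL12 stood at 0.251 ± 0.156 FPKM and CCL25 at 0.428 ± 0.129 in DMSO.

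CD69, which binds S1PR1 and takes it off the cell surface, kept 20.8%, 3.34% and 0.698% of its DMSO level with the 3 compounds in turn, where S1PR1 kept 18.4%, 8.90% and 5.24%. It measured 26.3 ± 0.996 FPKM in DMSO, 5.47 ± 2.12 after SNS-032, 0.878 ± 0.202 after THAL-SNS-032 and 0.184 ± 0.0925 after NVP-2, and it was lower with THAL-SNS-032 than SNS-032 (difference -1.74, limma adjusted p = 1.14e-05). All 11 tested genes of receptor coupling and desensitization, CD69 among them, and all 4 tested sphingosine phosphate genes fell with each compound, near the background of 94.6%, 94.8% and 97.1%. Some of these genes passed the filter only through the DMSO libraries, so their falls were partly set by the filter. RGS19, which turns off inhibitory G proteins, went from 104 ± 7.36 FPKM to 5.46 ± 2.04 after SNS-032, 5.53 ± 0.623 after THAL-SNS-032 and 2.28 ± 0.166 after NVP-2. With SNS-032 its difference of -4.06 was the deepest of the 11 coupling genes, which ranged up to -1.08. With THAL-SNS-032 the 11 ranged from -4.00 to -0.88, and with NVP-2 from -4.99 to -1.61.

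Integrin chains outside the set had median differences from DMSO of -1.49, -1.24 and -1.87 over 6 tested chains, nearer to 0 than those of all tested genes, but they ranged widely. ITGA1, a collagen-binding chain, stood at 2.75 ± 0.377 FPKM in DMSO, and with SNS-032, where it was 2.38 ± 0.678, it missed the threshold (limma adjusted p = 0.304). ITGA5, the fibronectin-binding alpha chain, fell from 31.1 ± 2.91 FPKM to 3.35 ± 1.15, 1.53 ± 0.227 and 0.638 ± 0.0483 with the 3 compounds in turn. ITGB7, the other partner of ITGA4, averaged 1.03 ± 0.925 FPKM in DMSO and was not tested.

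All 12 tested genes of integrin activation fell with each compound, as did 94.6%, 94.8% and 97.1% of all tested genes, and 2 of them were lower with THAL-SNS-032 than SNS-032, a share equal to the 16.7% of all tested genes. RHOH, a small GTPase of blood cells, went from 159 ± 16.6 FPKM to 90.1 ± 24.2 after SNS-032, 12.6 ± 1.60 after THAL-SNS-032 and 6.24 ± 0.820 after NVP-2. The difference of THAL-SNS-032 from SNS-032 was -2.71 for RHOH (limma adjusted p = 4.07e-07), the largest such difference in the list. RASSF5, which links the GTPase RAP1 to LFA-1, went from 70.0 ± 4.29 FPKM to 20.0 ± 6.15, 5.94 ± 0.741 and 2.50 ± 0.323, and differed by -1.56 (adjusted p = 4.15e-05). RAP1B, one of the RAP1 genes, stood at 195 ± 14.6 FPKM in DMSO and did not pass between these compounds (-0.33, adjusted p = 0.225).

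The selectin axis and adhesion glycoproteins held the deepest falls from DMSO among the tested listed genes with each compound. SELPLG and CD58, which gave them, passed the filter only through the DMSO libraries, so their falls were partly set by the filter. SELPLG, the ligand that lets T cells roll on P-selectin, went from 51.1 ± 5.93 FPKM to 1.03 ± 0.348 after SNS-032, 1.498 ± 0.255 after THAL-SNS-032 and 0.278 ± 0.0942 after NVP-2. CD58, the ligand of CD2, went from 38.4 ± 3.03 FPKM to 1.17 ± 0.231, 0.649 ± 0.227 and 0.697 ± 0.202, and ICAM2, a ligand of LFA-1, from 105 ± 8.91 FPKM to 7.29 ± 2.67, 4.11 ± 0.100 and 1.92 ± 0.164.

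Between THAL-SNS-032 and SNS-032, 6 listed genes were lower (10.7%), 8 were higher (14.3%) and 42 did not pass, beside 16.7% lower and 13.4% higher over all tested genes, with a median difference of 0.24 against 0.14 over all tested genes. CXCR6, kept by the filter only through the THAL-SNS-032 libraries, is among the 8. It is also among the genes higher with THAL-SNS-032 than NVP-2, and neither call of CXCR6 adds anything. The counts hung on the fit: leaving out single libraries gave 3 to 17 higher and 5 to 12 lower. The most higher genes came without SNS-032 replicate 2, where 24.3% of all tested genes were higher. SPN, a sialic acid-rich surface protein, was among the higher genes (14.1 ± 1.21 against 8.20 ± 2.75 FPKM, difference 0.76, limma adjusted p = 0.0101). Against NVP-2, THAL-SNS-032 left 46 of 56 higher and 0 lower, where 70% of all tested genes were higher, and SNS-032 left 29 higher and 0 lower, where 52.6% were. Median-centring turned these into 16 higher and 14 lower, and 9 higher and 33 lower. Of all tested genes 29.4% were then higher and 38% lower, and 24.8% higher and 58.9% lower.

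**Figure D5:**
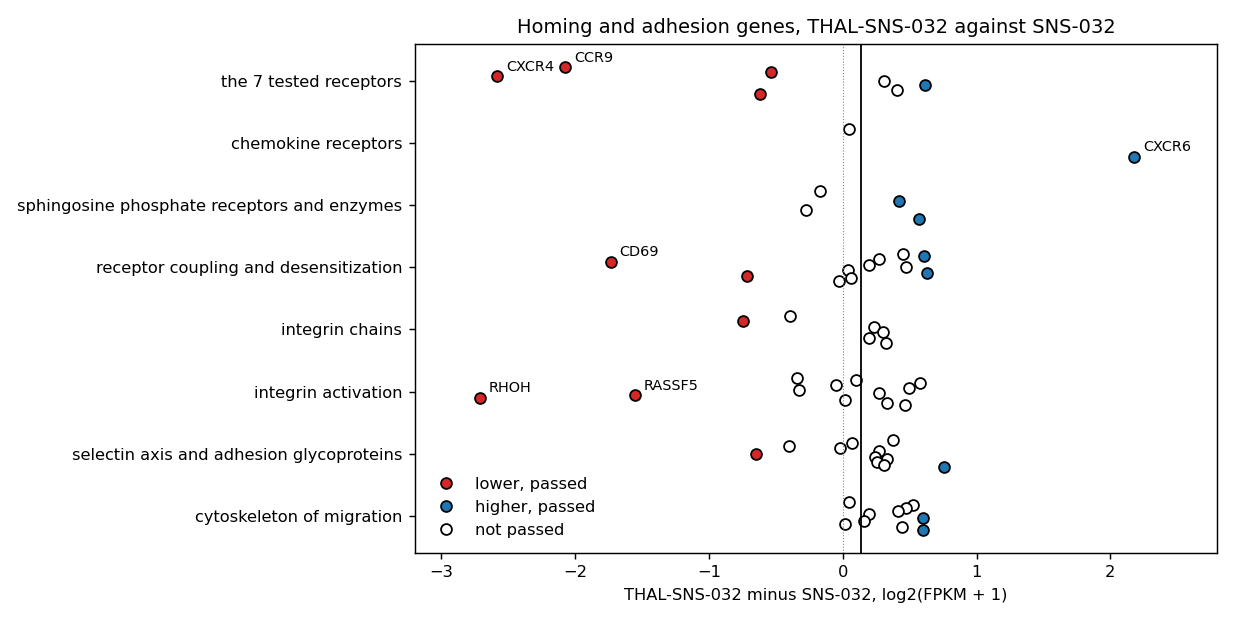
Difference in log2(FPKM + 1) between THAL-SNS-032 and SNS-032 for each tested homing or adhesion gene, 1 point per gene, in lines by role, filled where the test passed. RHOH at -2.71, CD69 at -1.74 and RASSF5 at -1.56 lie far to the left and CXCR6 at 2.18 far to the right, while 42 of the 56 listed genes did not pass. CXCR6 was kept by the filter only through the THAL-SNS-032 libraries, so its test adds nothing.

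Genes with the pattern most like each member were found by the Euclidean distance over the 12 libraries in log2(FPKM + 1), after each gene's DMSO mean was subtracted. CXCR4 had no close match: its nearest were CKS2 (distance 1.12), WEE1 (1.49) and KPNA2 (1.59), and CKS2 differed from DMSO by -1.15, -3.06 and -6.13 with the 3 compounds in turn. CCR9 lay nearest to SART3 (0.397), WIBG (0.447) and MRFAP1L1 (0.524), and S1PR1 to RRN3P2 (0.358), TAPT1 (0.368) and ZSCAN21 (0.373). ITGA4 lay nearest to PFN2 (0.212), JTB (0.258) and IFNAR2 (0.261), ITGAL to genes that included MOV10 (0.142) and POLD1 (0.224), and CD44 to PIM1 (0.307), MAP3K4 (0.312) and MAPK6 (0.315). ITGB2 had the closest match of all, HCLS1 at 0.0763, a protein of the lymphocyte cytoskeleton. Among the members themselves the nearest pair was S1PR1 and CD44 (0.665), followed by ITGAL and ITGB2 (1.02), and the farthest was CXCR4 and ITGAL (8.53). Large distances go with large changes, so these values describe the pattern and its size together.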

How the data were processed

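The authors deposited 1 table of FPKM values for the 12 libraries, made with HISAT, Cufflinks 2.0.0 and hg19 per the submitters' processing notes; the annotation and the use of the spike-ins in the scale are not given in the sources used here. Without counts in the table, read depth is unknown and no counting interval is given. From 23713 entries, 92 spike-in entries and 2 repeated symbols were removed, and genes averaging at least 1 FPKM over the libraries were kept.

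Values were used as deposited, as log2(FPKM + 1). A limma 3.58.1 fit with trend (R 4.3.3) covered all 4 groups (8 residual degrees of freedom), and 6 comparisons were tested two-sided. Calls were made at a Benjamini-Hochberg adjusted p under 0.05 over all 11381 tested genes, and intervals are 95%. The SE of every comparison pools all groups, the SNS-032 libraries included. Ratios within libraries were compared by exact permutation. The test was run on simulated data in which a small set of genes changed up or down with independent noise. That setting lacks the common fall seen here, so it does not check the calls under such a fall.

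The members and lists were chosen with earlier results of these data known. Named genes were the members, and listed genes with the largest changes, the direct partners of members, the most abundant of a role, or those that missed the test where few did; those printed were picked from these after their values were seen, and 2 that the rule allows are not reported here. Alternatives were other pseudocounts, filters, scalings and limma settings, a replicate block, fits to 6 libraries alone and each library left out. Centring on the median change from DMSO was chosen after seeing the data. Figures used matplotlib 3.10.9 in Python 3.11.15.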

Additional observations from a re-analysis of the deposited data

How the results depend on the processing

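The scale between libraries was the choice that mattered most, and depth is unknown. Of 42 member differences, 42 kept their direction and side of the threshold with no filter, with a pseudocount of 5 and with equal spike-in medians. Equal spike-in medians are a weak check of the scale if the median spike-in lies near the lowest values, which was not tested. Any centring removes the common fall, so genes that fell less than most turn positive under it. A turned sign does not by itself show a smaller fall. Median-centring moved the median of all tested genes to 0.25 for SNS-032 against DMSO. It also turned S1PR1 and CD69 there, which differed by -2.04 and -2.13, against -1.92 for the median gene. CCRL2 turned with NVP-2, where it kept 2.93% of its DMSO level and the median gene kept 12.1%. Replicate numbers did not pair the libraries: of 18 same-numbered pairs 1 had a correlation over 0.1, and 5 of 12 libraries correlated best with their own number. With a replicate block 17 listed genes, not 8, and 2308 of all tested genes, not 1525, were higher for THAL-SNS-032 against SNS-032. The block also made 4 member differences pass: S1PR1 and CD44 for THAL-SNS-032 against NVP-2 (adjusted p = 0.0472 and 0.0412, limma), and ITGA4 and ITGB2 for SNS-032 against NVP-2 (0.0206 and 0.0316).

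Median-centring of the libraries turned these differences. For SNS-032 against DMSO these were CXCR4 1.63, CCR9 0.54, S1PR1 0.13, ITGAL 0.59, ITGB2 0.47, CD69 0.042, RHOH 1.32, RASSF5 0.37, ITGB1 0.78 and ITGA1 2.01. For THAL-SNS-032 against DMSO these were ITGAL 1.29, ITGB2 0.95, ITGB1 1.19 and ITGA1 1.69. For NVP-2 against DMSO these were ITGAL 1.29, ITGB2 0.84, CXCR6 2.62, CCRL2 0.33, ITGB1 1.13 and ITGA1 1.78. For THAL-SNS-032 against NVP-2 these were S1PR1 -0.37, CD44 -0.38, CCRL2 -0.69, CD69 -0.040, ITGA1 -0.086 and ITGA5 -0.077. For SNS-032 against NVP-2 these were ITGA4 -0.31, ITGAL -0.70, ITGB2 -0.37, CXCR6 -0.15, ITGB1 -0.35, SELPLG -0.13 and CD58 -0.43. Counts of members higher and lower became 4 and 1 for SNS-032 against DMSO, 2 and 5 for THAL-SNS-032 against DMSO, 2 and 4 for NVP-2 against DMSO, 3 and 4 for THAL-SNS-032 against SNS-032, 2 and 2 for THAL-SNS-032 against NVP-2 and 2 and 3 for SNS-032 against NVP-2. Listed genes, in the same order, became 27 and 20, 33 and 21, 32 and 17, 37 and 10, 16 and 14, and 9 and 33. Of all tested genes 52.6%, 57.2%, 59.7%, 51.2%, 29.4% and 24.8% were then higher. The lower ones made up 31.1%, 29.2%, 28.1%, 23.1%, 38% and 58.9%. The median of all tested genes moved to 0.25, 0.36 and 0.42 against DMSO.

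Quantile normalization turned another set. For SNS-032 against DMSO these were CXCR4 1.10, CCR9 0.43, ITGAL 0.54, ITGB2 0.22, CD69 0.047, RHOH 1.01, RASSF5 0.28, ITGB1 0.66 and ITGA1 1.23. For THAL-SNS-032 against DMSO these were ITGAL 1.16, ITGB2 0.50, ITGB1 0.90 and ITGA1 0.89. For NVP-2 against DMSO these were ITGAL 1.33, ITGB2 0.59, ITGB1 1.03 and ITGA1 0.62. For THAL-SNS-032 against NVP-2 these were ITGA4 -0.10, ITGAL -0.17, ITGB2 -0.091, CD44 -0.21, ITGB1 -0.13 and RAP1B -0.13. For SNS-032 against NVP-2 these were ITGA4 -0.33, ITGAL -0.79, ITGB2 -0.37 and ITGB1 -0.38. Members higher and lower, in the same order of comparisons, were 4 and 2, 2 and 5, 2 and 5, 3 and 4, 2 and 3, and, for SNS-032 against NVP-2, 3 lower. Listed genes were 24 and 23, 29 and 24, 28 and 21, 33 and 12, 19 and 24, and 14 and 35. Of all tested genes 41.5%, 45.9%, 47.1%, 51.9%, 31.1% and 29.1% were higher, in the same order. The lower ones made up 41.3%, 39.2%, 38.6%, 25.8%, 35.6% and 53.9%.

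Centring on the median change from DMSO, chosen after seeing the data, turned the following. For SNS-032 against DMSO these were CXCR4 1.39, CCR9 0.30, ITGAL 0.35, ITGB2 0.22, RHOH 1.08, RASSF5 0.12, ITGB1 0.53 and ITGA1 1.76. For THAL-SNS-032 against DMSO these were ITGAL 0.94, ITGB2 0.60, ITGB1 0.83 and ITGA1 1.34. For NVP-2 against DMSO these were ITGAL 0.87, ITGB2 0.42, CXCR6 2.19, ITGB1 0.71 and ITGA1 1.36. For THAL-SNS-032 against NVP-2 these were S1PR1 -0.30, CD44 -0.31, CCRL2 -0.62, ITGA1 -0.018 and ITGA5 -0.0091. For SNS-032 against NVP-2 these were ITGA4 -0.13, ITGAL -0.52, ITGB2 -0.20 and ITGB1 -0.18. Members were 4 and 2, 2 and 5, 2 and 5, and 3 and 4, with 2 lower for THAL-SNS-032 against NVP-2 and 3 lower for SNS-032 against NVP-2. Listed genes were 19 and 26, 27 and 25, 29 and 23, 32 and 11, 25 and 12, and 15 and 25. Of all tested genes 40.9%, 41.9%, 42.4%, 42%, 34.8% and 30.9% were higher, in the same order. The lower ones made up 41.5%, 41.9%, 42.7%, 27.1%, 31.9% and 45.3%.

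For SNS-032 against DMSO 1 listed gene was higher with a pseudocount of 0.1, with no filter, with robust limma and with only the 6 libraries of the pair, and 0 to 1 without single libraries. Of all tested genes 1.56%, 2.02%, 1.5% and 2.03% were higher in the named fits in turn. With no filter 2 of 98 listed genes were higher with THAL-SNS-032 and 86 lower with NVP-2 than in DMSO, beside 2.93% and 82.8% of all genes. With a mean of 5 FPKM 0 of 47 were higher with THAL-SNS-032, beside 0.517% of all genes. With only the 6 libraries 0 members and 2 listed genes were higher for THAL-SNS-032 against SNS-032, beside 4.45% of all tested genes. Leaving out single libraries gave 0 to 1 members and 3 to 17 listed genes higher, and 5 to 12 listed genes lower, for that pair, and 4 to 7 members and 22 to 50 listed genes higher for SNS-032 against NVP-2. The 3 came without THAL-SNS-032 replicate 2, where 5.39% of all tested genes were higher, and the 17 without SNS-032 replicate 2, where 24.3% were. Without SNS-032 replicate 1 came the 12 lower, beside 30.1% of all tested genes, and the 7 members and 50 listed genes higher, beside 81.6%. The ITGAL to ITGB2 ratio differed by 0.13 for SNS-032 against DMSO when 1 FPKM was added first.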

Other observations

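The interferon-induced chemokine CXCL10, which draws T cells that carry CXCR3, was a listed ligand that stood higher with SNS-032. It averaged 0.149 ± 0.00347 FPKM in DMSO, 1.45 ± 0.558 with SNS-032, and only 0.162 ± 0.00918 after THAL-SNS-032 and 0.175 ± 0.0249 after NVP-2 (SD, n = 3 each). Its mean over all libraries missed the filter, so it was not tested. KLF2, a transcription factor known to drive S1PR1 in T cells, averaged 0.647 ± 0.166 FPKM in DMSO and 0.129 ± 0.00323, 0.0869 ± 0.00153 and 0.0884 ± 0.0135 with the 3 compounds in turn, the last 2 close to the floor, and was not tested either. Both were singled out after their values were seen.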
